A study of Mus musculus with 16 samples.

Results

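Basal cells of the mouse mammary gland were compared between 2 places in the growing epithelial tree, the duct and the terminal end bud (TEB). The cells were selected by their own transcript levels. Each cell went to the class whose marker genes had the highest mean z-score, out of 6 classes, and the basal class was the one scored on Krt5, Krt14, Krt17, Acta2 and Mylk. It held 200 cells of ducts and TEBs (123 and 77), of 976 cells kept from these structures and 1318 kept of 1419 deposited in all. A further 101 basal cells came from nipples and enter only where they are named.

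The study dissected single pieces of mammary gland (6 ducts, 6 TEBs and 4 nipples), sorted their cells into wells and read the 3' end of each transcript with unique molecular identifiers (UMIs), so that 1 count is 1 captured molecule. All fragments came from C57BL/6 Krt14-Cre/Rosa26-mTmG mice that were 5 weeks old, and no fragment was treated. The Krt14-driven Cre switches a membrane reporter from red to green in cells that express keratin 14 or descend from such cells, and every group carries it. The labels do not tie fragments to animals, so p-values measure the spread between fragments, of which several may share a mouse.

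The mammary epithelium is a bilayer, with luminal cells around the lumen and basal cells on the basement membrane. In a mature duct basal cells are myoepithelial: they are elongated, rich in smooth muscle actin and myosin, and contract on oxytocin to eject milk. The TEB is the club-shaped growing tip of puberty, whose outer layer of cap cells feeds the basal layer of the duct behind it while the tip invades the fat pad.

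Each fragment gave 6 to 32 basal cells and its basal cells together gave 302813 to 1210315 UMIs, the unit of every comparison below. Duct members sat well inside their class and TEB members closer to its edge: the median of the basal score was 2.07 in duct cells and 0.633 in TEB cells. Of the 77 TEB members, 31 led the next class by less than 0.5, against 5 of the 123 duct members, and the smallest lead was 0.0220. For 27 of these 31 TEB members the next class was the endothelial one. The lead is computed from the class markers, so asking for a lead of at least 0.5, as done below, also selects on their levels. It removes 12 of the 23 basal cells of TEB 42. In the other direction, 11 duct cells and 6 TEB cells of other classes missed the basal class by less than 0.5, the closest by 0.00190.

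The markers that chose the cells are given as a description, with no test. The median cell held 42.3 UMIs of Krt14 per 10000 in ducts and 1.65 in TEBs. For Krt5 the medians were 16.6 and 2.08, for Krt17 54.0 and 15.5, for smooth muscle actin Acta2 81.3 and 34.6, and for myosin light chain kinase Mylk 6.83 and 0.118. At a common depth of 5000 UMIs per cell, 100% of TEB members and 99.2% of duct members still showed Acta2. The other basal markers were found in fewer TEB than duct members at this depth. Krt5 was in 53.2% of TEB and 95.1% of duct members, and Krt14 in 51.9% and 95.9%. For Krt17 the shares were 90.9% and 97.6%, and for Mylk 24.7% and 84.6%. Endothelial markers were nearly absent, with 0 UMIs of Cdh5 and at most 1 of Pecam1, Kdr and Emcn in each location. Luminal markers were mixed. The factor Elf5 had 0 UMIs in both locations, and at 5000 UMIs Esr1, Kit and Ltf were in at most 1.63% of members. Krt18 was in 96.7% of duct and 79.2% of TEB members, Wfdc18 in 65.0% and 57.1%, and Cited1 in 34.1% and 14.3%. The fibroblast genes Dcn (35.8% and 29.9%) and Col3a1 (31.7% and 33.8%) were also found. Of the duct members 5, and of the TEB members 2, had under 4 UMIs of the basal keratins but at least 5 UMIs of the pericyte genes Rgs5, Notch3, Pdgfrb and Cspg4 together, and 4 of the 5 duct cells came from fragment 31.

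TEB basal cells held more RNA. Their median UMIs per cell lay between 24256 and 55582 over the 6 TEB fragments (median 44190) and between 16879 and 37277 over the 6 duct fragments (median 22542), a difference past the exact permutation test (two-sided p = 0.011). Set against the spike-in RNA added to each well, the levels were 159 ± 17.0 UMIs per spike-in UMI in TEBs and 111 ± 10.7 in ducts (SD, n = 6 each), with no overlap of fragments (exact permutation p = 0.0022, the smallest that 6 against 6 allows). All levels below are CPM and so are relative. In duct and TEB basal cells, the UMIs of a gene are scaled to UMIs in tested genes times the fragment's TMM factor. On the scale of spike-in UMIs the totals alone would lower every log2 difference of duct minus TEB by 0.52. The TMM factors, at 0.888 to 0.967 in ducts and 1.04 to 1.09 in TEBs, would add to this shift. The full shift was not calculated. Of the 425 genes called higher in duct 406 lie above 0.52, which is an upper limit for those above the full shift.

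**Figure D1:**
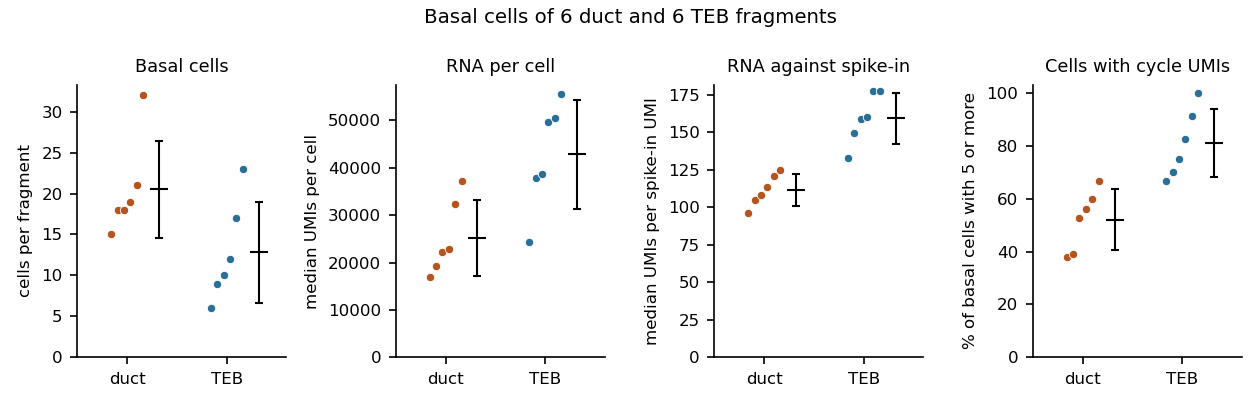
Basal cells of each fragment: the number of cells, the median UMIs per cell, the median UMIs per spike-in UMI and the percentage of cells with at least 5 UMIs of core cycle genes at a common depth of 5000 UMIs. Each point is 1 fragment (points are spread by level to keep them apart) and the bars are the mean ± SD of 6 fragments. RNA against spike-in does not overlap between locations, at 111 ± 10.7 in ducts and 159 ± 17.0 in TEBs.

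The comparison asks how basal cells of the growing tip differ from those of the duct behind it. Of 5363 genes tested with edgeR's quasi-likelihood test, 425 (7.92%) were higher in duct and 260 (4.85%) higher in TEB basal cells at a Benjamini-Hochberg adjusted p under 0.05, and 1366 had an unadjusted p under 0.05. The levels of 251 genes higher in duct (4.68% of those tested) and 107 higher in TEB (2.0%) also did not overlap between the 6 duct and 6 TEB fragments. The median log2 difference of called genes was 1.49 among those higher in duct and -1.44 among those higher in TEB. RNA from other wells, estimated from fibroblast and myeloid transcripts, made up 3.4% to 22.3% of a fragment's basal pool, and 48 called genes (45 higher in duct, 3 in TEB) could have drawn over 20% of their UMIs in the higher location from it. Requiring a class lead of at least 0.5 left 304 genes higher in duct and 187 higher in TEB.

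**Figure D2:**
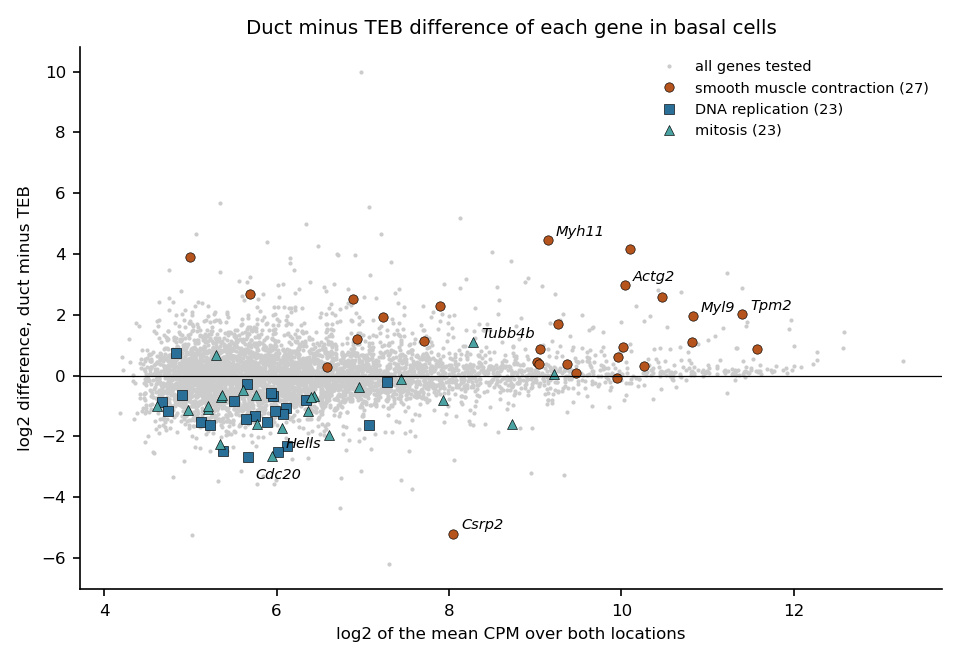
Log2 difference of duct minus TEB (vertical axis) against the log2 mean CPM over both locations (horizontal axis) for the 5363 genes tested, with 3 gene lists marked. Contraction genes lie mostly above 0 (Csrp2, at -5.20, is the member called below it), and DNA replication and mitosis genes mostly below it.

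Genes of the contractile apparatus were mostly higher in duct basal cells. Of 27 tested genes of smooth muscle contraction (class markers left out), 19 were higher in duct, 1 was higher in TEB and 7 did not pass, with a median log2 difference of 1.15 against -0.0044 over all genes. Together they took 28758 to 38830 CPM in duct fragments and 12079 to 15259 CPM in TEB fragments. Leaving out any 1 fragment gave 19 or 20 genes higher in duct. Vascular smooth muscle shares this programme, and no gene of a list of 9 pericyte and vascular smooth muscle markers was abundant enough to test. Their summed level was 0 to 418 CPM in ducts (median 8.09) and 0 to 93.3 CPM in TEBs (median 17.9). One of them had 0 UMIs in ducts and 3 had 0 in TEBs, and without the cells that held such markers 18 of 26 contraction genes were higher in duct.

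Myosin and actin led this group. The smooth muscle myosin heavy chain Myh11 (chromosome 16, 14194535 to 14291372, GRCm38) lay between 950.3 and 1190.1 CPM in ducts (median 1099) and between 11.8 and 77.7 CPM in TEBs (median 59.8), a log2 difference of 4.47 ± 0.30 (SE; edgeR adjusted p = 1.64e-09). Enteric actin Actg2 held 1387 to 2376 CPM in ducts (median 1916) and 141 to 412 CPM in TEBs (median 173), and the reads counted here align to 1 place only, so reads shared with Acta2 are not in it. Every duct fragment lay above every TEB fragment for both genes. The actin-binding proteins Cnn1 and Tagln followed, with log2 differences of 4.17 ± 0.48 and 2.58 ± 0.26 (edgeR adjusted p = 0.000128 and 7.23e-06). Cnn1 stood at 1303 to 2887 CPM in ducts (median 2091) and 12.0 to 212 CPM in TEBs (median 126).

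The regulatory light chain Myl9 ranged from 2266 to 3993 CPM in ducts (median 2723) and from 467 to 1225 CPM in TEBs (median 727), a log2 difference of 1.94 ± 0.21 (edgeR adjusted p = 2.96e-06). Tropomyosin 2, Tpm2, was among the 5 genes with the smallest p higher in duct, at 3354 to 5609.9 CPM in ducts and 864 to 1365 CPM in TEBs (log2 difference 2.03 ± 0.13, edgeR adjusted p = 1.08e-11). Smaller steps separated Tpm1 (1.09 ± 0.13) and the light chain Myl6 (0.87 ± 0.10), again with no overlap of fragments. The oxytocin receptor Oxtr, through which the hormone triggers contraction, was at 29.9 to 92.0 CPM in ducts (median 61.5) and 0 to 9.54 CPM in TEBs (median 1.64), a log2 difference of 3.90 ± 0.68 (edgeR adjusted p = 0.000149).

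Csrp2, a LIM-domain protein of smooth muscle and its precursors, ran the other way. It was at 1.94 to 35.1 CPM in ducts (median 14.6) and 242 to 975 CPM in TEBs (median 386), a log2 difference of -5.20 ± 0.48 (edgeR adjusted p = 4.3e-07). It was the only tested gene of the list higher in TEB, also when any 1 fragment was left out.

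Serum response factor and its cofactors drive smooth muscle genes through the CArG box, a 10-base element of 2 C, 6 A or T and 2 G. In RefSeq promoters (250 bases before to 50 bases after each gene's start, GRCm38.p6) the box was present in 2 of 29 promoters of the contraction list (6.90%) and in 425 of 27025 promoters in all (1.57%). One belonged to Myl9, the light chain above, and is shown on the gene's strand with the box in capitals and 10 bases to each side; the other belonged to Cnn2, which did not pass the test.
Myl9, box at chr2:156775303-156775312, plus strand, from 161 bases before the start: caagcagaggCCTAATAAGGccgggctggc
Cnn2, box at chr10:79988544-79988553, plus strand, from 56 bases before the start: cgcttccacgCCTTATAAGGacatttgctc
These are matches of letters only, and elements farther from the start lie outside the window.

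**Figure D3:**
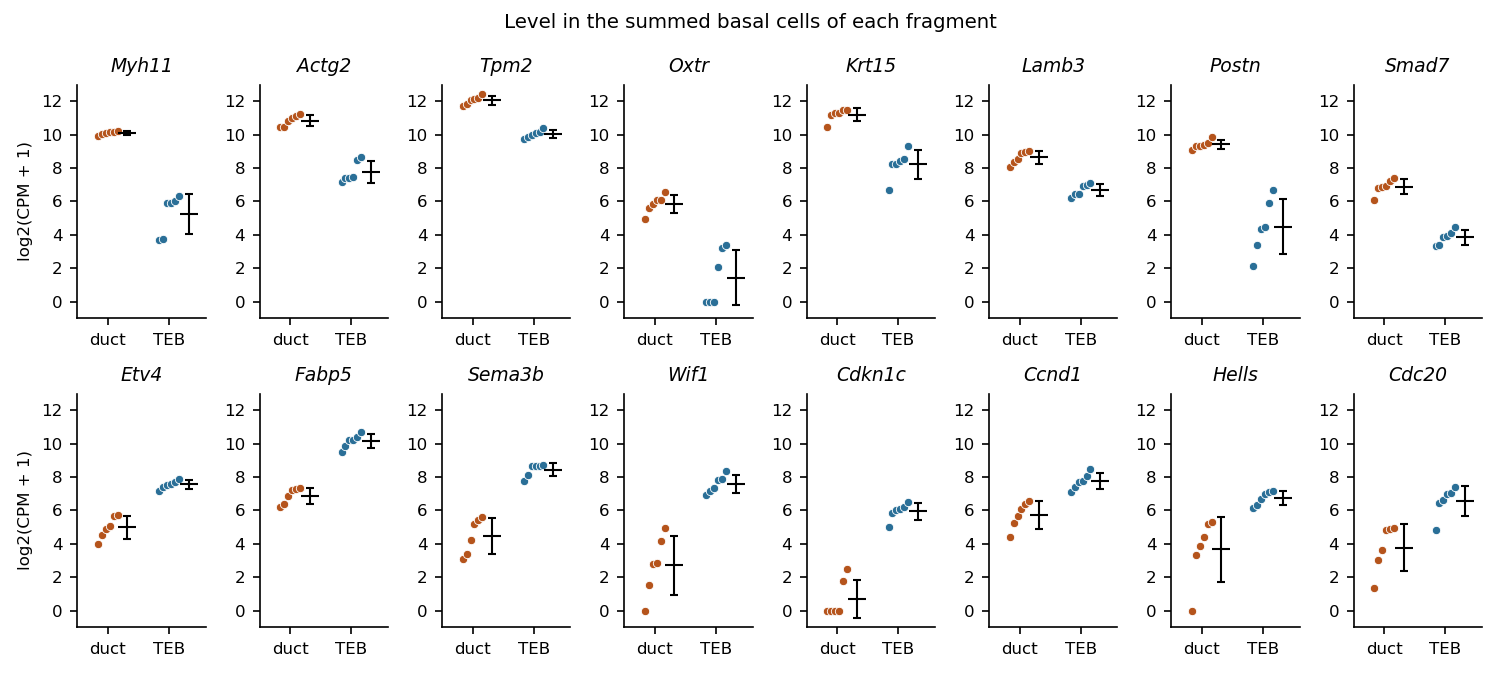
Level of 16 genes in the summed basal cells of each fragment, as log2(CPM + 1). Each point is 1 of 6 duct or 6 TEB fragments (points are spread by level to keep them apart) and the bars are the mean ± SD. The genes of the upper row, among them Myh11, Tpm2 and Lamb3, were higher in every duct fragment, and those of the lower row were higher in TEBs, with overlap of fragments in Cdc20 alone.

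Genes that fasten the cell to its matrix were also higher in duct where they passed. Among basement membrane genes, 10 of 18 tested were higher in duct and 0 in TEB (median log2 difference 0.88). Among integrins, the receptors that hold cells to it, 4 of 8 were higher in duct and 0 in TEB. Both counts stand against 7.92% of all genes higher in duct, and they were 9 to 10 and 4 to 5 when 1 fragment was left out.

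Lamb3, a chain of the laminin that binds hemidesmosomes, was at 269.9 to 510.4 CPM in ducts (median 417) and 73.2 to 138 CPM in TEBs (median 103), a log2 difference of 1.95 ± 0.23 (edgeR adjusted p = 4.52e-07). The collagen IV chain Col4a1 (0.80 ± 0.14) and the matrix glycoprotein Sparc (0.91 ± 0.12) differed less, though each duct fragment still lay above each TEB fragment. The fibronectin receptor subunit Itga5 had a log2 difference of 2.27 ± 0.29 and lay at 200.2 to 409 CPM in ducts and 30.1 to 96.8 CPM in TEBs. Itgb1, the shared beta subunit and a marker used to sort basal cells, had 867 to 1505 CPM in ducts and 517 to 760.2 CPM in TEBs (0.94 ± 0.14, edgeR adjusted p = 2.95e-05). Itga3 and Itgav were the other integrins called (0.97 ± 0.21 and 1.09 ± 0.28), and neither passed with a class lead of at least 0.5 (edgeR adjusted p = 0.0907 and 0.0794).

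Of 17 tested basal keratin and hemidesmosome genes outside the class markers, 4 were higher in duct and 1 in TEB. Keratin 15 (Krt15), a keratin of stratified basal layers, stood at 1421 to 2843 CPM in ducts (median 2512) and 102 to 635 CPM in TEBs (median 319), a log2 difference of 2.83 ± 0.34 (edgeR adjusted p = 0.000103). The laminin receptor Bcam followed with 2.30 ± 0.27, the desmosomal plakophilin Pkp1 with 1.70 ± 0.41 and the hemidesmosomal collagen Col17a1 with 0.82 ± 0.22. Col17a1 overlapped between locations and did not pass with a class lead of at least 0.5 (edgeR adjusted p = 0.139). Trp63, the master transcription factor of basal epithelium, was the member higher in TEB, at 28.6 to 105 CPM (median 69.4) against 0 to 44.8 CPM in ducts (median 19.6). Its log2 difference of -1.82 ± 0.59 (edgeR adjusted p = 0.0414) no longer passed without duct 31, 51, 52 or 62 or without TEB 31, 33, 34 or 42 (adjusted p = 0.0529 to 0.0913), nor with a class lead of at least 0.5 (0.302).

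Genes of elastic fibres and matricellular proteins split, with 5 of 18 tested higher in duct and 4 higher in TEB, against 7.92% and 4.85% of all genes. Ltbp2, a fibrillin-binding protein of elastic fibres, was at 125 to 373 CPM in ducts and had 690 UMIs there against 0 in all TEB basal cells, so it was at least 265-fold higher in duct (3 UMIs over the TEB sums as the floor). The matricellular protein periostin, Postn, had 549 to 938 CPM in ducts and 3.38 to 100.1 CPM in TEBs (log2 difference 4.06 ± 0.50, edgeR adjusted p = 9.14e-05). Thrombospondin 1 (Thbs1, 1.43 ± 0.16), elastin (Eln, 2.01 ± 0.40) and Fbln7 completed those higher in duct. In TEBs it was fibrillin 2 (Fbn2), the fibrillin of developing tissue, that was higher, at 48.4 to 149 CPM against 0 to 40.8 CPM in ducts (-2.20 ± 0.55, edgeR adjusted p = 0.00707). Fibulin 1 (Fbln1, -1.66 ± 0.30), versican (Vcan, -1.26 ± 0.31) and fibronectin (Fn1, -1.44 ± 0.37) went the same way. Eln and Vcan did not pass with a class lead of at least 0.5 (edgeR adjusted p = 0.0566 and 0.0687). For Fn1, RNA from other wells could account for 38.9% of its TEB UMIs.

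Protease inhibitors also split, 4 of 11 tested in each direction, against 7.92% of all genes higher in duct and 4.85% higher in TEB. Serpinb5 (maspin), a serpin of myoepithelium, had 479 to 882 CPM in ducts and 42.1 to 162 CPM in TEBs (log2 difference 2.49 ± 0.24, edgeR adjusted p = 2.75e-08). The secreted serpins Serpinf1 (-2.78 ± 0.30) and Serpine2 (-3.45 ± 0.63, and -4.33 without duct 31), with Serpinb11 (-1.85 ± 0.29) and cystatin C (Cst3, -1.20 ± 0.21), were higher in TEBs. The set higher in duct also held Cstb, Serpinb6a and Wfdc2, the last with its UMIs in ducts fully within what other wells could give (122%).

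**Figure D4:**
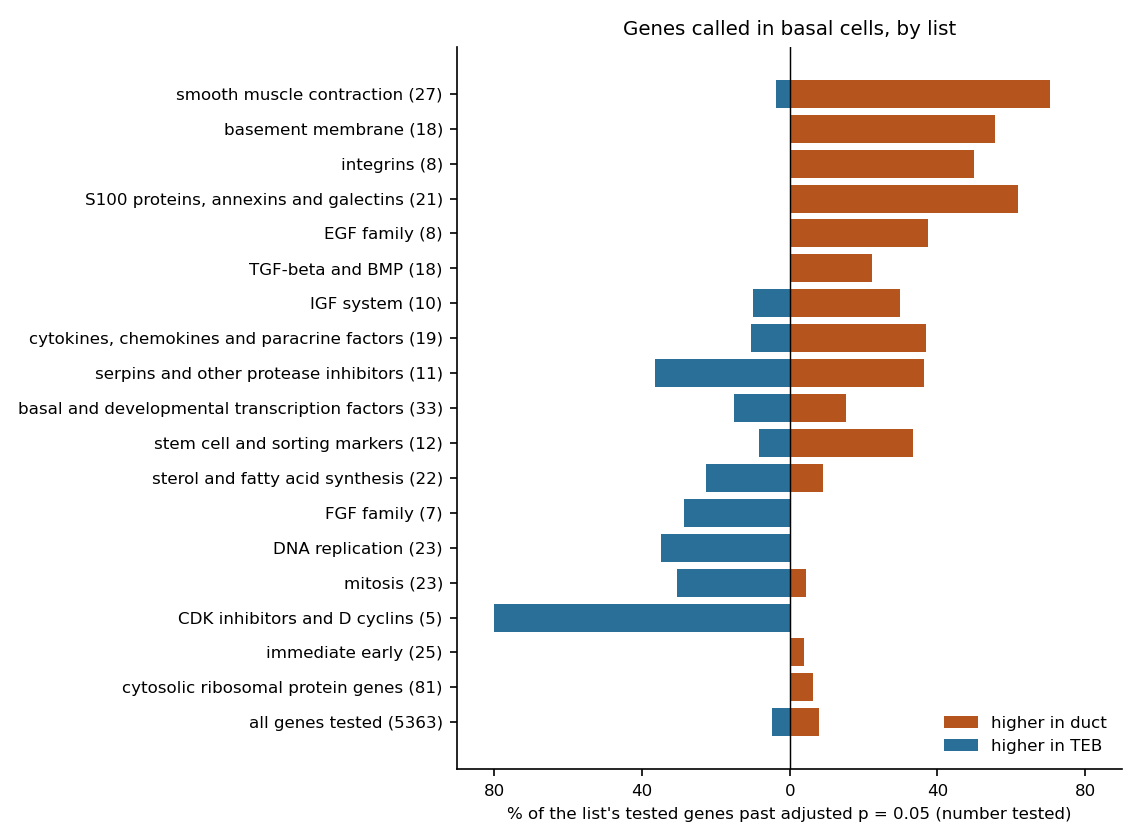
Percentage of each gene list's tested members called higher in duct (right) or higher in TEB (left), at an edgeR adjusted p under 0.05, with the number of genes tested in parentheses. All 5363 genes are the bottom bar, with 7.92% higher in duct and 4.85% higher in TEB. Contraction (19 of 27) and S100, annexin and galectin genes (13 of 21) stand farthest to the right.

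A minority of the tested cell cycle genes were called, nearly all of them higher in TEB basal cells. Of 23 tested genes of DNA replication, 8 were higher in TEB and 0 in duct (median log2 difference -1.18), against 4.85% of all genes. Of 23 tested mitosis genes, 7 were higher in TEB and 1 in duct (median -0.80). These counts moved with the choice of cells and fragments. With a class lead of at least 0.5 they fell to 1 of 23 and 2 of 25, and with equal numbers of cells per fragment to 4 of 7 and 1 of 13. The replication count was 15 of 27 without duct 61 and 5 without TEB 32, 33 or 42, and with DESeq2 it was 10 of 23.

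Among replication genes, the chromatin helicase Hells was at 70.8 to 144 CPM in TEBs (median 113) and 0 to 38.2 CPM in ducts (median 16.8), a log2 difference of -2.52 ± 0.49 (edgeR adjusted p = 0.000548). Dut, which keeps uracil out of DNA, stood at 146 to 262 CPM in TEBs and 12.8 to 112 CPM in ducts (-1.63 ± 0.33, edgeR adjusted p = 0.000785). For both genes every TEB fragment lay above every duct fragment. In mitosis, the anaphase activator Cdc20 had 27.0 to 165 CPM in TEBs and 1.53 to 29.6 CPM in ducts (-2.65 ± 0.52, edgeR adjusted p = 0.000623), and the mitotic kinase Cdk1 had 49.6 to 238 CPM and 17.4 to 77.7 CPM (-1.97 ± 0.41). Both overlapped between locations. With a class lead of at least 0.5, Dut and Cdc20 did not pass (edgeR adjusted p = 0.0765 and 0.0982). The tubulin Tubb4b, which is not restricted to mitosis, was the member higher in duct (1.10 ± 0.26).

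Of 5 tested CDK inhibitors, D cyclins and their kinase, regulators of the G1 phase, 4 were higher in TEB. The count higher in TEB was 4 when any 1 fragment was left out and 2 of 3 when each cell was thinned to 5000 UMIs. Without duct 52, 1 member was called higher in duct as well. The summed level of the list overlapped between locations, at 1645 to 3385 CPM in ducts and 2632 to 3075 CPM in TEBs. Cyclin D1 (Ccnd1) had 136 to 349.9 CPM in TEBs (median 212) and 19.9 to 92.6 CPM in ducts (median 59.1), a log2 difference of -1.93 ± 0.33 (edgeR adjusted p = 0.000117). Its kinase Cdk4 (-1.09 ± 0.19) and cyclin D2, Ccnd2 (-0.60 ± 0.15), differed less. The remaining member acts against the others: Cdkn1c encodes p57, an imprinted inhibitor of cyclin-dependent kinases. It was at 30.7 to 91.2 CPM in TEBs (median 65.0), and 4 of 6 duct fragments had none (highest 4.60 CPM), a log2 difference of -5.25 ± 0.73 (edgeR adjusted p = 7.23e-06) that was -6.39 without duct 51.

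E2F factors switch on replication genes through the motifs TTTGGCGC and TTTCCCGC. Searched on both strands of the same RefSeq promoters, TTTGGCGC was present in 6 of 37 replication promoters (16.2%) and 0 of 40 mitosis promoters, against 0.537% of all promoters. TTTCCCGC was present in 7 of 37 replication promoters (18.9%) and 0 of 40 mitosis promoters, against 1.11% of all. Some genes with a match were not called, among them Mcm6, which was tested and held TTTGGCGC (log2 difference -1.06). The called genes with a match are shown on the gene's strand with the motif, or its reverse complement, in capitals and 10 bases to each side.
Hells, motif at chr19:38930928-38930935, plus strand, from 62 bases before the start: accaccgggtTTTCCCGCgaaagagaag
Mcm7, motif at chr5:138172041-138172048, minus strand, from 165 bases before the start: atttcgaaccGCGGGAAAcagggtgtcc
Mcm5, motif at chr8:75109360-75109367, plus strand, from 149 bases before the start: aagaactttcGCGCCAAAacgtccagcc
Mcm7 and Mcm5 encode subunits of the replicative helicase, named here for their motifs. Their log2 differences were -2.47 ± 0.58 (edgeR adjusted p = 0.00371) and -1.52 ± 0.45 (adjusted p = 0.0235), the second not passing without duct 31 or 52 or TEB 32 or 33 (0.0509 to 0.0731) or with a class lead of at least 0.5 (0.561). Each motif match is a description of these letters in this window.

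Cells with cycle transcripts were also counted. At 5000 UMIs per cell, the share of basal cells with at least 2 UMIs of the replication and mitosis lists was near its ceiling in both locations, 98.9% ± 2.7 in ducts and 97.2% ± 6.8 in TEBs (SD, n = 6 each; exact permutation p = 1). A stricter rule was chosen after these values were seen. With the abundant Tuba1b, Tubb4b and Hmgb2 left out and at least 5 UMIs asked for, the share was 52.1% ± 11.5 in ducts (38.1% to 66.7%) and 80.9% ± 12.9 in TEBs (66.7% to 100%), a difference past the exact permutation test (two-sided p = 0.0043).

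Signalling genes were called in both directions. Each count of members from here on stands against 7.92% of all genes higher in duct and 4.85% higher in TEB. In the EGF family 3 of 8 tested genes were higher in duct and 0 in TEB. Epiregulin (Ereg), an EGF receptor ligand, was at 41.4 to 105 CPM in ducts, and 4 UMIs of it were found in TEBs (log2 difference 5.68 ± 0.75, and 7.18 without TEB 34). The feedback inhibitor Errfi1 had a log2 difference of 1.27 ± 0.32 (edgeR adjusted p = 0.0101) and did not pass with a class lead of at least 0.5 (0.0648). Amphiregulin (Areg), the ligand made by ER+ luminal cells, had 1.32 ± 0.37 (edgeR adjusted p = 0.0172), but other wells could have given 144% of its duct UMIs and it did not pass without duct 62 (adjusted p = 0.0707) or with a class lead of at least 0.5 (0.231).

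TGF-beta and BMP genes were higher in duct where they passed, 4 of 18 tested, with 0 higher in TEB. The feedback inhibitor Pmepa1 lay at 356 to 615 CPM in ducts and 26.0 to 96.3 CPM in TEBs (log2 difference 2.88 ± 0.25, edgeR adjusted p = 2.95e-09). The inhibitory Smad7 lay at 66.9 to 166 CPM in ducts and 9.03 to 20.9 CPM in TEBs (3.03 ± 0.39, edgeR adjusted p = 2.31e-06). The BMP target Id1 (1.72 ± 0.33) and the secreted antagonist Fstl1 (1.49 ± 0.30) were the others, and in all 4 genes no fragments overlapped.

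In the FGF family 2 of 7 tested genes were called, both higher in TEB, and both are ETS factors induced by FGF receptor signalling. Etv4 was at 145 to 235 CPM in TEBs (median 188) and 14.8 to 52.5 CPM in ducts (median 30.9), a log2 difference of -2.45 ± 0.32 (edgeR adjusted p = 2.99e-06). Etv5 was at 89.1 to 162 CPM in TEBs and 3.89 to 35.5 CPM in ducts (-2.71 ± 0.40, edgeR adjusted p = 1.53e-05). Among 17 tested Wnt genes, 1 ligand was higher in duct, a smaller share than over all genes (7.92%), and 2 members in TEB (4.85% over all genes). Wnt10a stood at 91.3 to 276 CPM in ducts and 0 to 18.9 CPM in TEBs (4.27 ± 0.58). The secreted inhibitor Wif1 stood at 120.4 to 331 CPM in TEBs and 0 to 29.9 CPM in ducts (-4.37 ± 0.52, edgeR adjusted p = 1.07e-06; -5.10 without duct 32), and the nuclear effector Tcf7l2 differed by -0.97 ± 0.27.

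Of 10 tested genes of the IGF system, 3 binding proteins were higher in duct and 1 in TEB. Igfbp3 and Igfbp5, which bind IGF outside the cell, had log2 differences of 2.95 ± 0.31 and 3.07 ± 0.46 (edgeR adjusted p = 2.86e-06 and 0.000549). Igfbp2 had 1.75 ± 0.30, with duct 61 at 2527 CPM and the other ducts at 1242 to 1611 CPM. Igfbp4 was higher in TEB (-0.99 ± 0.25) with overlap of fragments, and did not pass with the nipple fragments in the fit (edgeR adjusted p = 0.113). Semaphorin 3B (Sema3b), a secreted guidance cue, was among the 5 genes with the smallest p in TEB, at 219.7 to 418 CPM there and 7.66 to 47.8 CPM in ducts (-3.72 ± 0.35, edgeR adjusted p = 1.26e-08).

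Secreted cytokines and growth factors were higher in duct in 7 of 19 tested genes and higher in TEB in 2. Cxcl14, the chemokine of resting epithelium, was at 2783 to 3668 CPM in ducts and 1008 to 1564 CPM in TEBs (log2 difference 1.30 ± 0.11, edgeR adjusted p = 4.25e-09). The myeloid growth factors Csf1 (3.96 ± 0.43) and Csf3 (3.96 ± 0.73) and the chemokine Cxcl16 (2.77 ± 0.41) were also higher in duct. Csf3 was uneven between ducts, from 53.3 to 409 CPM. The 2 genes higher in TEB are a pair of related heparin-binding growth factors. Pleiotrophin (Ptn) had 507 to 1025 CPM in TEBs and 178 to 306 CPM in ducts (-1.72 ± 0.19, edgeR adjusted p = 2.18e-07), and midkine (Mdk) differed by -0.92 ± 0.24.

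Transcription factors of basal cells and development were called in 10 of 33 tested, 5 in each direction. Higher in duct were Bhlhe40 (log2 difference 1.91 ± 0.32), Runx1 (1.31 ± 0.28), Sox9 (1.09 ± 0.29), Epas1 (3.26 ± 0.76, and 4.26 without TEB 33) and Myc (0.86 ± 0.27). Higher in TEB were Lmo4 (-1.58 ± 0.25), Snai2 (-1.03 ± 0.26), Irx5 (-1.86 ± 0.50), Tfap2b (-1.26 ± 0.41) and Trp63, described above. Lmo4, a LIM-domain cofactor, was at 343 to 681 CPM in TEBs and 105 to 331 CPM in ducts, and Snai2 (Slug), a repressor of luminal fate, at 162 to 348 CPM and 56.4 to 163 CPM. Myc no longer passed without duct 31, 32, 51 or 62 or TEB 31, 33, 42 or 43 (edgeR adjusted p = 0.0638 to 0.101), nor did Tfap2b without duct 31, 32, 51, 61 or 62 or TEB 31, 32, 33 or 42 (0.0503 to 0.111). With a class lead of at least 0.5 their adjusted p was 0.313 and 0.469.

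Of 12 tested markers used to sort or to name mammary stem cells, 4 were higher in duct (Itgb1, Cd44, Cd24a and Cd9), against 7.92% of all genes, and Trp63 was higher in TEB, against 4.85%. The hyaluronan receptor Cd44 had a log2 difference of 1.03 ± 0.23 (edgeR adjusted p = 0.00244), while Cd24a (0.65 ± 0.20) lost its call without duct 52, 61 or 62 or TEB 32 or 33 (adjusted p = 0.0540 to 0.0914). Cd9 differed by 0.36 ± 0.10, which is under the spike-in shift of at least 0.52, and did not pass without TEB 43 (adjusted p = 0.0567). Whether the 0.65 of Cd24a lies above the full shift was not calculated. With a class lead of at least 0.5 neither Cd24a nor Cd9 passed (0.301 and 0.110). Other wells could have given 35.1% of the duct UMIs of Cd24a.

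The RNA of Cd34 and Cd200, the pair of surface proteins the study sorted basal cells on, did not pass. The sort read the proteins by flow cytometry, which these RNA sums do not measure. For Cd34 the study also reports expression specific to TEB basal cells in both transcripts and protein. Cd34 was at 6.02 to 76.3 CPM in TEBs (median 52.1) and 11.7 to 41.5 CPM in ducts (median 22.1), a log2 difference of -0.88 ± 0.55 (edgeR adjusted p = 0.337). Cd200 was at 11.7 to 118 CPM in ducts (median 51.8) and 3.18 to 111 CPM in TEBs (median 22.7), a log2 difference of 0.65 ± 0.66 (adjusted p = 0.59), and other wells could have given 80.4% of its duct UMIs. Itga6 (0.50 ± 0.28), Dll1 (0.98 ± 0.42) and Epcam (0.39 ± 0.17) did not pass either, and Epcam did without TEB 33 (adjusted p = 0.0440). Lgr5 (6 UMIs in ducts, 0 in TEBs), Bcl11b (10 and 30 UMIs) and Tspan8 (14 and 6 UMIs) were too sparse to test. Procr was not tested either, and no comparison is made for it. It had 597 UMIs in ducts, with 1299.9 CPM in duct 31 and 1.94 to 436 CPM in the other ducts.

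The study's own signature genes were chosen on these samples and are therefore no independent evidence. Both tested TEB genes (Csn3 and Slc6a15) were higher in TEB, and 5 of 5 tested duct genes (Actg2, Alpl, Ereg, Igfbp2 and Ttc9) were higher in duct. Of the others, Mycn and Tbx2 (TEB) and Cyp1b1 (duct) were too sparse to test. Mycn was at 0 to 59.4 CPM in TEBs (median 27.2) and 0 to 14.8 CPM in ducts (median 5.68). The duct gene Ttc9 passed in all fragments together (2.42 ± 0.70, edgeR adjusted p = 0.0214) and not without duct 32, duct 62 or TEB 42 (0.0604 to 0.0676), nor with a class lead of at least 0.5 (0.164).

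Genes of small calcium-binding and lectin proteins were mostly higher in duct as well: 13 of 21 tested S100 proteins, annexins and galectins, with 0 higher in TEB (median log2 difference 0.76). Galectin 1 (Lgals1, chromosome 15, 78926725 to 78930465, GRCm38) had the smallest p of the genes named here. It lay at 3827 to 4891 CPM in ducts (median 4505) and 299.8 to 609 CPM in TEBs (median 407), a log2 difference of 3.38 ± 0.15 (edgeR adjusted p = 2.22e-15). S100a6 (1.78 ± 0.14) and annexin A2 (Anxa2, 1.61 ± 0.14) had no overlap either. The zinc-binding metallothioneins Mt1 and Mt2 were also higher in duct (1.84 ± 0.13 and 2.75 ± 0.15), Mt2 at 2634 to 3245 CPM in ducts and 267 to 545 CPM in TEBs (edgeR adjusted p = 7.36e-13). Duct 31 stood apart for Mt1, at 8106 CPM.

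Of 22 tested genes of sterol and fatty acid synthesis and handling, 5 were higher in TEB, against 4.85% of all genes. In duct 2 (Elovl1 among them) were higher, near the 7.92% of all genes. The fatty acid chaperone Fabp5 (chromosome 3, 10012548 to 10016607, GRCm38) was at 723 to 1629 CPM in TEBs (median 1176) and 72.0 to 159.7 CPM in ducts (median 131), a log2 difference of -3.27 ± 0.22 (edgeR adjusted p = 3.18e-11). The desaturase Scd2 (-3.44 ± 0.48) and the farnesyl diphosphate synthase Fdps (-1.71 ± 0.35) were higher in every TEB fragment, and Cyp51 and Fdft1 were the others. Of 33 tested genes of glutathione and oxidative defence, 5 were higher in duct (Gpx3, Hmox1, Mt1, Mt2 and Cbr2), against 7.92% of all genes. In TEB 3 were higher (Gpx2, Prdx2 and Mgst1), against 4.85%. The genes of this list had a median log2 difference of 0.030. Their summed level was 17510.4 to 21133 CPM in ducts and 10425 to 12392 CPM in TEBs, and other wells could have given 108% of the duct UMIs of Gpx3. Gpx2, an epithelial glutathione peroxidase, had 826 UMIs in TEBs and 10 in ducts (-6.22 ± 0.63, edgeR adjusted p = 7.82e-07), and the microsomal glutathione transferase Mgst1 differed by -1.50 ± 0.20. The retinoic acid binding protein Crabp2 was higher in duct, at 124 to 177 CPM there and 0 to 24.1 CPM in TEBs (4.999 ± 0.62, and 6.27 without TEB 33).

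Further genes with large differences lie outside these groups, the first of them with no overlap of fragments. In ducts, alkaline phosphatase Alpl was at 112 to 389 CPM against 0 to 18.0 CPM in TEBs (log2 difference 5.53 ± 0.65, and 8.48 without TEB 42), and the tubulin-binding Tppp3 at 325 to 896 CPM against 0 to 29.5 CPM (log2 difference 5.18 ± 0.41, edgeR adjusted p = 1.26e-08). Clca2 (4.67 ± 0.61, and 5.28 without TEB 43) and the GPI-anchored cadherin Cdh13 (4.66 ± 0.75, and 5.75 without TEB 33) followed. In TEBs, the imprinted gene Mest was at 175 to 293 CPM against 14.9 to 67.1 CPM in ducts (-3.15 ± 0.35), and the transmembrane glycoprotein embigin, Emb, at 453 to 734 CPM against 115 to 237 CPM (-1.86 ± 0.19). Trib2 (-3.57 ± 0.60, and -4.55 without duct 61), Cir1 (-3.58 ± 0.57), Tmem54 (-3.47 ± 0.62) and the amino acid transporter Slc6a15 (-3.13 ± 0.56) had similar ratios at lower levels. Cadherins split as well: the epithelial Cdh1 was higher in duct (1.09 ± 0.25), and P-cadherin Cdh3 (-1.37 ± 0.34) and N-cadherin Cdh2 (-2.56 ± 0.64) were higher in TEB. Cdh1 overlapped between locations, could draw 23.7% of its duct UMIs from other wells and did not pass with a class lead of at least 0.5 (edgeR adjusted p = 0.0559).

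Markers of luminal cells moved with the same comparison. Of 12 tested luminal genes outside the class markers, 6 were higher in duct (4 to 6 when 1 fragment was left out) and 1, Csn3, in TEB. Their summed level was 8660 to 11264 CPM in duct basal cells and 4334 to 5322 CPM in TEB basal cells. Keratin 8 (Krt8) was at 3510 to 4772 CPM in ducts and 1088 to 1524 CPM in TEBs (log2 difference 1.64 ± 0.11, edgeR adjusted p = 1.95e-11). The share that other wells could give of the duct UMIs was 20.1% for Krt8, 38.7% for Krt19 (2.28 ± 0.21) and 76.8% for Krt7 (1.98 ± 0.32). Krt5 and Krt18 each reached 10 UMIs in 89 of 123 duct members and 19 of 77 TEB members. Wells with more than 1 cell were not called, and their part in these results was not tested. The milk fat globule protein Mfge8 was higher in duct (0.87 ± 0.15), and kappa-casein Csn3 was at 475 to 1229 CPM in TEBs and 27.2 to 252 CPM in ducts (-3.20 ± 0.45).

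Whether these differences are those of basal cells or of the whole epithelium was asked by testing the class by location term in fragments that held both classes. Between basal and ER+ luminal cells the duct minus TEB difference itself differed for 354 of 9082 genes (3.9%, 12 fragments). Between basal and ER- luminal cells it differed for 106 of 7237 genes (1.46%, 11 fragments, since TEB 43 held too few ER- cells). ER+ luminal cells on their own had 141 genes higher in duct and 83 higher in TEB of 8041 tested, and ER- luminal cells 52 and 12 of 5425. Both classes share their fragments with the basal cells.

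Several of the largest basal differences were of this kind. Lgals1 was at 133 ± 56.3 CPM in ER+ luminal cells of ducts and 95.9 ± 57.8 CPM in those of TEBs (log2 difference 0.45 ± 0.33), and its basal difference was larger by 2.93 (SE 0.33, edgeR adjusted p = 0.000212). Postn differed by 4.06 in basal cells and by -0.35 ± 0.58 in ER+ luminal cells (term 4.72, SE 0.37, edgeR adjusted p = 2.5e-10). Metallothionein Mt2 was abundant in ER+ luminal cells of both locations, at 2949 ± 835 CPM in ducts and 3694 ± 830 CPM in TEBs, and its term was 3.15 (SE 0.27, edgeR adjusted p = 5.06e-05). Tpm1 went in opposite directions, 1.09 in basal cells and -0.63 ± 0.13 in ER+ luminal cells (edgeR adjusted p = 0.00591), with a term of 1.77 (SE 0.19, edgeR adjusted p = 2.83e-06).

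Toward TEB the same held for Etv4, Lmo4, Ptn, Ccnd1 and Cdk4, whose terms against ER+ luminal cells were -2.11, -1.90, -1.28, -1.72 and -0.96. Ptn was at 872 ± 332 CPM in ER+ luminal cells of ducts and 1104 ± 120 CPM in those of TEBs. For the replication and mitosis genes named here (Hells, Dut, Mcm5, Mcm7, Cdk1, Cdc20 and Hmgb2) the term did not pass in either luminal class. Contraction genes did not all behave like Tpm1. Myh11 was too sparse in ER+ luminal cells to be tested there alone, and its term of -0.23 (SE 0.26, edgeR adjusted p = 0.761) did not pass in the joint fit, nor did that of Cnn1 (-0.30, SE 0.46, adjusted p = 0.836). RNA from other wells was estimated for basal sums only, and its part in the luminal UMIs of these genes was not tested. These terms therefore do not show that luminal cells themselves change alike.

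**Figure D5:**
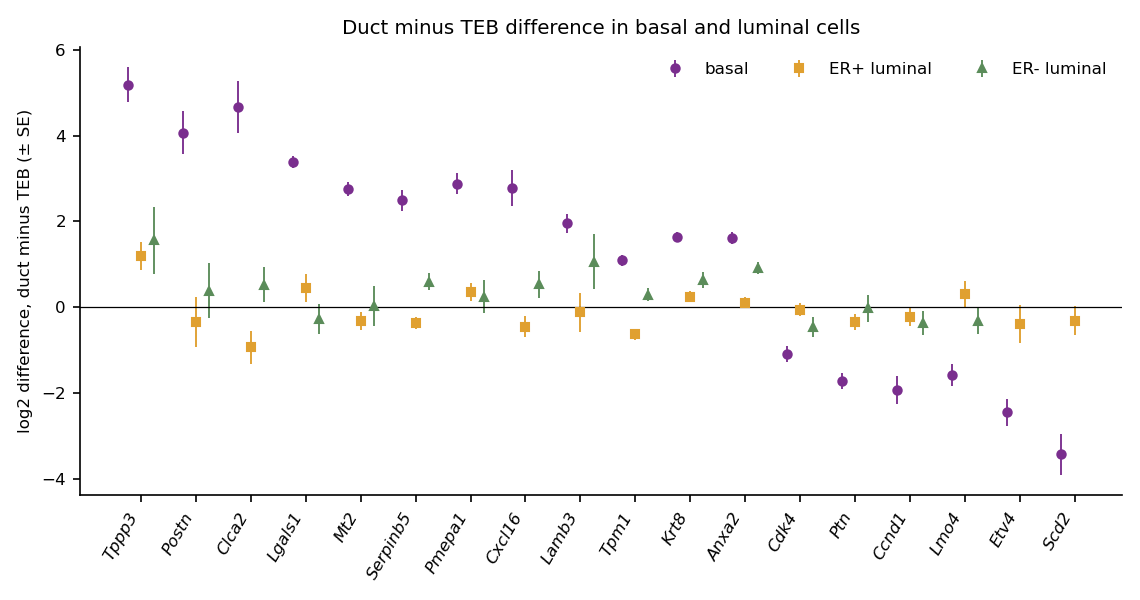
Log2 difference of duct minus TEB (± SE of the fit) for 18 genes in basal, ER+ luminal and ER- luminal cells; a missing point means that the gene was too sparse to test in that class. Lgals1, Mt2 and Postn lie far above 0 in basal cells and near it in ER+ luminal cells, and Tpm1 lies above 0 in basal and below 0 in ER+ luminal cells.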

How the data were processed

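Per the labels and the study's methods, the authors sorted single cells of dissected mammary fragments into wells with ERCC spike-in RNA, made 3' UMI libraries and deposited 1 table of raw UMI counts per gene and cell. The submitters' processing notes name Trim Galore, FastQC, UMI-tools, STAR, featureCounts and mm10, and reads with more than 1 alignment were dropped. Replicates were not pooled, and no column of the deposited counts was left unused.

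Cells were kept when ERCC made up no more than 5% and when they held between 5000 and 120000 UMIs and between 200 and 6000 genes. Counts without ERCC were scaled to 10000 per cell, logged and z-scored per gene, and each cell joined the class with the highest mean z over its markers. Basal counts were summed per fragment (at least 5 cells) and ducts and TEBs were compared with edgeR 4.0.16 (TMM, filterByExpr, quasi-likelihood test, Benjamini-Hochberg over all genes tested) under R 4.3.3. The class by location term was fitted on the sums of both classes. Each SE of a log2 difference or term was derived from its test: the size of the difference divided by the square root of the F statistic. The steps were tested on simulated data. Shares and RNA content were compared by two-sided exact permutation over fragments. No doublet caller was run. Over the 16 fragments 95 distinct well barcodes were found, 33 of them in every fragment. RNA from other wells was estimated from fibroblast and myeloid markers in the basal cells.

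The members, the gene lists and the tests were chosen with earlier results of these data known. Genes named are, in each direction, 8 by size of difference and 5 by p (called, without overlap, and with under 20% of UMIs from other wells; for the first, at least 50 CPM), the study's signature genes, the stem cell markers, and up to 4 called members of each list per direction. Other genes (such as Mcm5 and Mcm7, and members that complete a count) were chosen after their values were seen. Class markers were not tested. Gene positions are GRCm38 (GENCODE M21), and promoters are RefSeq GRCm38.p6, searched on both strands.

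Alternatives were DESeq2 1.42.0, no low-count filter, RLE size factors, other limits on ERCC, UMIs and cells, thinned or equal numbers of cells, a class lead of 0.5, nipples in the fit, a replicate block, and each fragment left out. Added after seeing the data were the sums without pericyte-like cells, the stricter cycle share and RNA content without each fragment. Some genes are not reported here.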

Additional observations from a re-analysis of the deposited data

Results flagged for a closer look

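Single fragments stood apart from the other 5 of their location in 27 of 256 groups of values examined. Chance alone flags about 1 in 20 groups, and genes of 1 fragment are not independent of each other. Duct 31, the duct with most pericyte-like cells, held the highest duct level of Mt1 (8106 CPM), Procr (1299.9 CPM), Csn3 (252 CPM), Serpine2 (105 CPM), Mest (67.1 CPM) and Tspan8 (25.6 CPM), and the fewest genes per cell (2626). Duct 62 had the highest Cd9 (2602 CPM) and Id1 (419.8 CPM) and the lowest Krt15 (1421 CPM). Duct 61 had the highest Igfbp2 (2527 CPM), Serpinf1 (162 CPM) and Trib2 (33.4 CPM). Lmo4 was highest in duct 52 (331 CPM), Itga6 in duct 32 (251 CPM) and the basal share of cells in duct 51 (36.8%).

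Among TEBs, fragment 33, with 6 basal cells, held the highest Cst3 (1661 CPM), Cd200 (111 CPM), Epas1 (39.1 CPM) and Cdh13 (12.0 CPM). Fragment 31 had the highest Scd2 (262 CPM) and the lowest Vcan (168 CPM) and Serpinb11 (116 CPM). Fragment 34 had the highest Serpine2 (584.5 CPM) and Ereg (10.1 CPM), fragment 43 the highest Krt19 (671 CPM) and fragment 42 the highest Alpl (18.0 CPM).

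The duct minus TEB difference itself differed between basal and ER+ luminal cells in edgeR's joint fit for 45 of the genes named. Values here are the basal difference minus the luminal one, in log2. In contraction and attachment they were 1.77 for Tpm1, 1.18 for Myl6, 2.58 for Krt15, 2.14 for Bcam, 1.92 for Lamb3, 1.25 for Itgb1, 1.43 for Itga3 and 1.72 for Itga5. In the matrix and its inhibitors they were 4.72 for Postn, 2.93 for Serpinb5, -2.57 for Serpinf1 and -1.13 for Cst3, and the adjusted p for Ltbp2 was 0.00491.

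Signalling and regulatory genes differed between the same classes by 2.45 for Smad7, 2.54 for Pmepa1, -2.11 for Etv4, 3.49 for Csf1, 4.37 for Csf3, 3.46 for Cxcl16, -1.28 for Ptn, -1.72 for Ccnd1 and -0.96 for Cdk4. Transcription factors and surface markers gave 1.13 for Runx1, 2.16 for Bhlhe40, -1.90 for Lmo4, 1.29 for Cd44 and 0.56 for Cd24a.

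Metabolic and small proteins gave -3.01 for Scd2, -1.58 for Fdps, 2.01 for Mt1, 3.15 for Mt2, 2.93 for Lgals1, 1.998 for S100a6 and 1.54 for Anxa2. Junction and luminal keratin genes gave 1.08 for Cdh1, 1.40 for Krt8, 2.18 for Krt19 and 2.09 for Krt7. The remaining ones were Alpl (5.89), Tppp3 (4.33), Clca2 (5.79), Cdh13 (5.002), Cir1 (-3.18), Trib2 (-3.69) and Tmem54 (-3.19).

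Against ER- luminal cells the same term passed for 25 of the genes named. It was 1.53 for Tpm2, 0.88 for Tpm1, 0.89 for Myl6 and -4.60 for Csrp2 among contraction genes. In the matrix it was 1.18 for Thbs1, 4.65 for Postn, 2.06 for Serpinb5 and -2.45 for Cst3, with an adjusted p of 8.19e-06 for Ltbp2. Signalling genes gave 2.48 for Pmepa1, 4.19 for Igfbp5, 3.71 for Csf1, 2.50 for Cxcl16, -1.50 for Ptn and 1.80 for Bhlhe40.

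The others were -1.22 for Mgst1, 1.49 for Mt1, 4.81 for Crabp2, 3.85 for Lgals1, 1.24 for S100a6, 0.66 for Anxa2, 0.97 for Krt8, 1.84 for Krt19, 5.85 for Alpl and 4.62 for Clca2.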

How the results depend on the processing

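Most of the 685 calls kept their direction and significance under other tools and filters. Of them, 677 were called by DESeq2 (852 in all), 663 with RLE size factors, 672 with an ERCC limit of 10%, and 431 of 676 still tested with a class lead of at least 0.5 (491 in all). Leaving out 1 fragment gave 546 to 699 calls (350 to 418 higher in duct, 194 to 281 higher in TEB). The term against ER+ luminal cells gave 291 to 365 calls and that against ER- luminal cells 73 to 125.

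Counts fell where depth or cells were removed, which also left fewer genes to test. Thinning each cell to 5000 UMIs gave 284 calls of 1520 genes tested (167 higher in duct, 117 in TEB) and 38 for the ER- term. Equal numbers of cells per fragment gave 283 calls of 3220 (193 in duct, 90 in TEB).

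With nipple fragments in the fit, Trp63, Vcan, Mcm5, Igfbp4, Tfap2b and Ttc9 did not pass (edgeR adjusted p = 0.0540 to 0.113), nor did Trp63, Mcm5, Myc, Irx5, Tfap2b and Cd24a with at least 10 cells per fragment (0.0512 to 0.259), nor Myc without pericyte-like cells (0.0713).

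Ducts and TEBs share only the numbers 31 and 32, and no label says that they mark a common animal. Deviations of same-numbered fragments correlated at 0.0086 and 0.0090, and the crossed ones at 0.014 and 0.012. A replicate block on the title number could use only ducts 31 and 32 and TEBs 31 and 32, and all other fragments were left out. It gave 102 calls (86 in duct, 16 in TEB), 93 of them among the 685. Of 29 contraction genes 11 were higher in duct. Higher in TEB were 0 of 25 replication genes, 0 of 25 mitosis genes and 0 of 6 CDK inhibitors and D cyclins. A replicate block on the first digit of that number gave 312 calls (221 in duct, 91 in TEB), with 17 of 27 contraction genes higher in duct. Higher in TEB were 2 of 23 replication genes, 1 of 23 mitosis genes and 2 of 5 CDK inhibitors and D cyclins. Ducts 51, 52, 61 and 62 and TEBs 42 and 43 share no first digit with the other location, so they do not inform this difference. Neither count can therefore separate the block from the loss of fragments.

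The share of cells with cycle transcripts, at its ceiling, was higher in ducts by 1.67 points. It changed sign with a class lead of at least 0.5 (-1.11, exact permutation p = 1) and was -28.8 under the stricter rule (exact permutation p = 0.0043). Leaving out 1 fragment gave -1.11 to 2.78, and -31.7 to -25.0 under the stricter rule. A fit on cells with few cycle transcripts could not be run, since no TEB fragment held more than 3 such cells under the stricter rule. The depth of 302813 to 1210315 UMIs per fragment leaves genes of low level untested, and TEB 33 rests on 6 cells.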

Other observations

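Nipple basal cells (101 cells of 4 fragments) were not part of the comparison, and their levels are given here pooled over fragments, with no test. They are scaled to all UMIs without a TMM factor, so they are not on quite the same scale as the duct and TEB levels beside them. For several genes higher in TEB they stood below every TEB fragment: Sema3b and Gpx2 were at 0.447 CPM each, Etv4 at 20.6 CPM and Fabp5 at 177 CPM. Wif1, at 115 CPM, lay near the lowest TEB fragment (120.4 CPM), too close to be ordered on unlike scales. For genes higher in duct the nipple was mixed. Postn (992 CPM) lay above every duct fragment, Ltbp2 (139 CPM) within them and Lgals1 (2843 CPM) and Myh11 (544 CPM) between ducts and TEBs. Actg2 (178 CPM) lay within the TEB range. Mt2 (5928 CPM) was above every duct fragment, and Igfbp2 (84.0 CPM) was below every TEB fragment.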
